A study of Mus musculus with 10 samples.

Results

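The genes described here encode the subunits of the transcription factor NF-kB and the IkB family proteins that bind them. Members were listed by name, and a gene was measured where at least 1 probe set of the array carried its name and no other gene's. Of the 10 listed genes, 9 were measured, out of 18128 genes in all. They are the subunit genes Nfkb2, Rel, Rela and Relb (4 of 5) and the IkB family genes Nfkbia, Nfkbib, Nfkbie, Nfkbiz and Bcl3 (5 of 5). No probe set of the annotation used carried the name of Nfkb1, so this subunit is not analysed here. The 9 genes had 17 probe sets between them, and each gene is represented by the probe set with the highest mean over the 10 arrays.

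The samples were synovium of the left hind leg of 10 male DBA/1J mice, 8 weeks old per the labels. All 10 had arthritis induced by antibodies to collagen (CAIA), with 1 mg of a monoclonal antibody against type II collagen on day 8 and 25 µg of lipopolysaccharide (LPS), a bacterial activator of NF-kB, on day 11, and were killed on day 12. Vehicle mice (n = 5) received corn oil by mouth, and maslinic acid mice (n = 5) received 200 mg per kg of this olive-derived triterpene in corn oil daily. Both groups thus had arthritis and LPS, and healthy mice were not analysed here, so induction of these genes by arthritis itself was not measured. The 5 arrays of each group came from mice that the submitters selected from larger groups. The labels call them biological replicates, so p-values measure the spread between mice.

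NF-kB proteins work as dimers. In resting cells IkB proteins hold them in the cytoplasm, and a signal from a Toll-like, IL-1 or TNF receptor activates the IKK kinases, which mark IkB for destruction and free the dimer to enter the nucleus. Several inhibitors are themselves NF-kB target genes, so that an active pathway rebuilds its own brake. In inflamed synovium the pathway is known for driving cytokines, chemokines and matrix-degrading enzymes.

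Sequence at the start sites is shown because the feedback arm is defined by NF-kB acting on these genes. RefSeq promoter windows, each from 250 bases before a start site to 50 bases from it on GRCm38.p6, were given for 7 of the 10 listed genes and searched on both strands for the NF-kB consensus motif (the kB motif, 10 bases, matches allowed to overlap each other). A match was found in windows of 5 of these 7 genes, namely Nfkb2, Rel, Nfkbia, Nfkbie and Bcl3, and not in those of Rela and Nfkbib. By windows, 7 of the 9 of these genes held a match, against 4.51% of all 32851 promoter windows of the table. Nfkb2 had several windows, and its later ones overlap and share the match at chr19:46305705-46305714, which was counted in each. The share of all genes with a match was not computed. The Nfkbia window, chr12:55492598-55492897 on the minus strand, is shown whole because Nfkbia is the classic feedback inhibitor. The match, in capitals, starts 29 bases upstream of the start site.
Nfkbia promoter: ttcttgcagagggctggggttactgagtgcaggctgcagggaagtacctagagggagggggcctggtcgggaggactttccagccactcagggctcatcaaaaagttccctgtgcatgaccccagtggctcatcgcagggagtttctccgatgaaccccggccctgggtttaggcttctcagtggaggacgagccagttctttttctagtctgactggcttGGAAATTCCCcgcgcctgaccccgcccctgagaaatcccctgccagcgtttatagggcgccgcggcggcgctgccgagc

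The matches of the other 4 genes are shown with the bases around them, all 5′ to 3′ on the gene's strand, with matched bases in capitals. Nfkb2 windows held matches at 4 places, of which 2 are shown. The first run, at chr19:46304683-46304723, holds a pair of overlapping matches that start 39 bases upstream of 1 of its start sites. The other Nfkb2 site shown is at chr19:46305690-46305729, in the windows of later start sites. The Rel run, at chr11:23771036-23771076 on the minus strand, also holds overlapping matches, 92 bases upstream. The Nfkbie site, at chr17:45555579-45555618, starts 106 bases upstream. The Bcl3 site, at chr7:19822729-19822768 on the minus strand, lies 2 bases downstream of the start site. A match is a run of letters and not a measured binding site.
Nfkb2, first run: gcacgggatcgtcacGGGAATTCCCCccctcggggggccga
Nfkb2, later site: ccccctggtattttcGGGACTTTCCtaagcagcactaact
Rel: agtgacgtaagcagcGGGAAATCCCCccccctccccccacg
Nfkbie: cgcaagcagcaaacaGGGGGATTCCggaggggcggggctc
Bcl3: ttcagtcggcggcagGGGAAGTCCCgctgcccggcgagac

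Values are called scores here, because the scale of the deposited numbers is unknown. Its level resembles a log2 intensity (median 6.74), but differences between mice are very small. Over all probe sets 93.5% had a range under 0.001, so a difference is not a log2 fold change. Values of the members are therefore given as deviations from the gene's own mean over the 10 arrays, in millionths of a score unit, which is the last of the 6 decimals deposited. Differences between groups are given as Hedges' g, the maslinic acid mean minus the vehicle mean in SDs within groups, with a 95% confidence interval and n = 5 per group. Deviations cannot be set against each other between genes.

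Vehicle replicate 3 stood apart for these genes. It had the lowest value in 7 of the 9 members and in all 5 IkB family genes, whereas over the 6743 genes with 10 distinct values it was the lowest array in 20.4% and the highest in 20.9%. The same mouse had the highest summed score of neutrophil markers (mean z-score 1.32, against -0.65 to 0.64 in the other 9) and the lowest of macrophage markers (-0.98, against -0.53 to 0.92). Its median over all probe sets was also the lowest (6.74466, against 6.74478 to 6.74493). Maslinic acid replicate 1 had the highest value in 4 members, and replicate 3 in 3. In whole tissue, fewer cells of a type and less RNA per cell cannot be told apart. Of the synovial fibroblast markers all 10 were measured, with mean scores of 6.34 to 11.5. Skeletal muscle markers, with mean scores of 6.57 to 13.3, were measured beside them. Results that rest on vehicle replicate 3 are given with and without it.

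The main comparison asked whether maslinic acid changed the level of NF-kB genes in arthritic synovium. No member passed the test. In limma, 0 of the 9 members and 0 of 18128 genes (0%) had an adjusted p under 0.05. Of the 9 members, 8 had a higher mean with maslinic acid, against 49.6% of all genes and 60.3% of the genes with 10 distinct values. At an unadjusted p under 0.05 there was 1 member, Nfkbiz, against 8.56% of all genes. It was in the higher direction, as were 4.22% of all genes, and 4.34% were lower. By an exact Wilcoxon test 0 genes passed after adjustment, and 6.75% had an unadjusted p under 0.05. In none of the 9 were the groups apart, whereas they did not overlap in 1.38% of all genes.

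**Figure D1:**
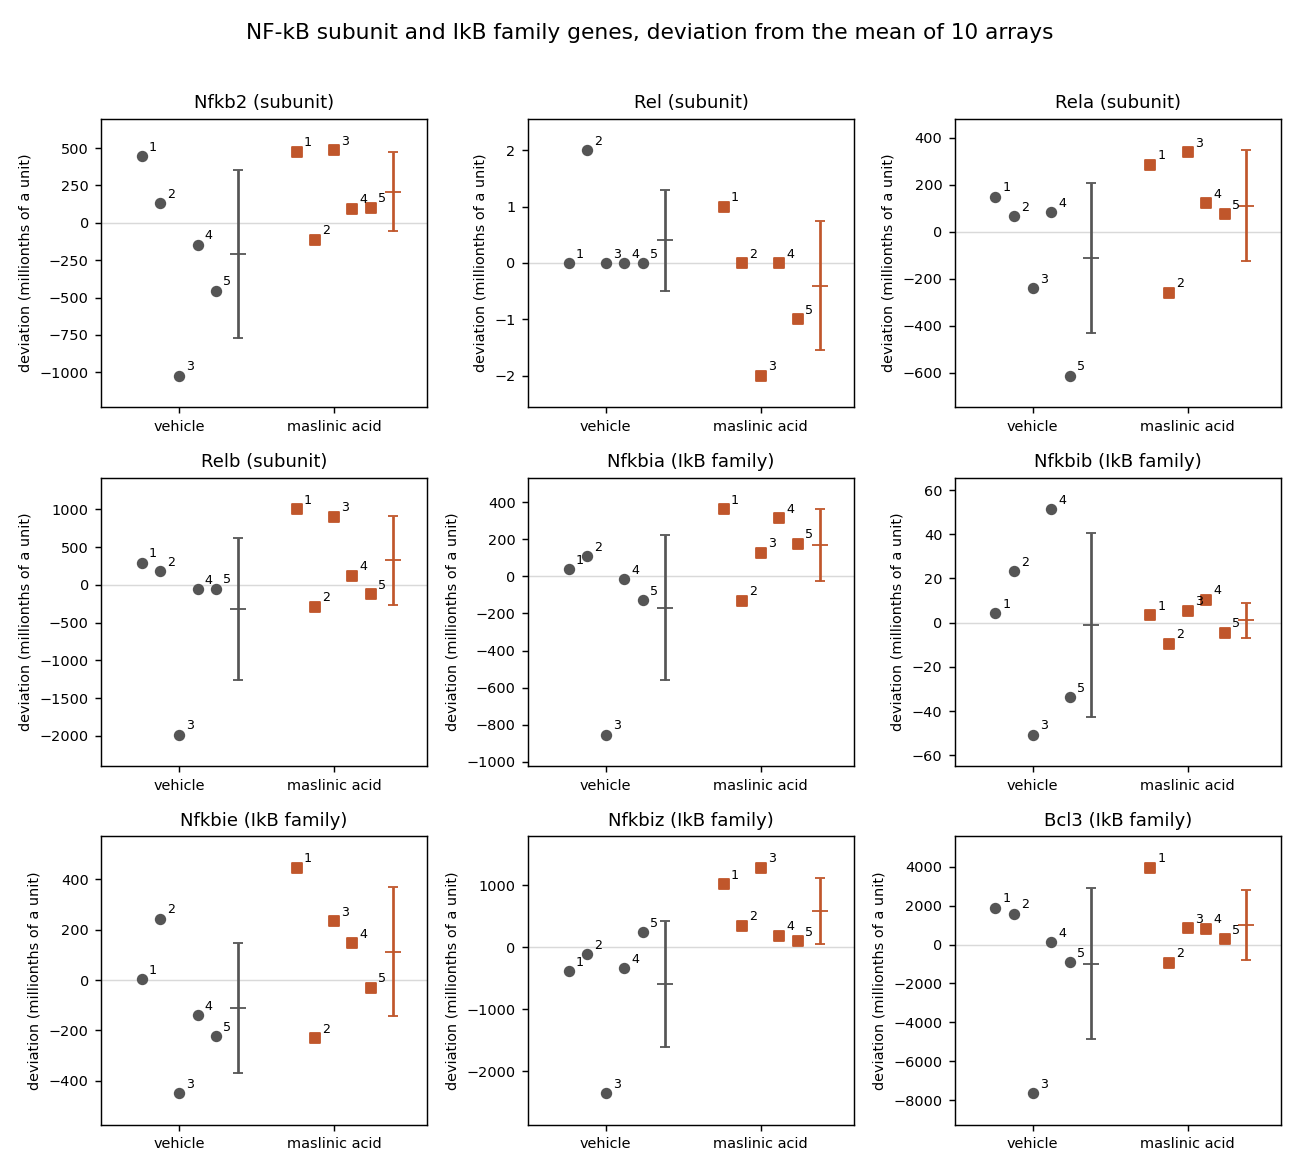
Deviation of each gene from its mean over 10 arrays (vertical axis, millionths of a score unit, a separate scale in each panel) in vehicle (circles) and maslinic acid mice (squares), with replicate numbers beside the points and the group mean ± SD to their right (n = 5 each). Vehicle replicate 3 is the lowest point in every panel except Rel and Rela, and the 2 groups overlap in all 9 panels.

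Among the inhibitors, Nfkbia encodes IkB-alpha, the main IkB of resting cells, which NF-kB re-induces within a short time of activation. Its deviations were 39.9, 110, -853, -16.1 and -129 in vehicle replicates 1 to 5 and 363, -131, 128, 313 and 176 in maslinic acid replicates 1 to 5. Except for replicate 2, each maslinic acid mouse lay above all 5 vehicle mice. The difference was g = 0.991 (95% CI -0.25 to 2.18, adjusted p = 0.625 in limma, exact permutation p = 0.0794), and 0.932 without vehicle replicate 3. Nfkbia had 4 probe sets, the most of any member. The other 3 followed the chosen one over the mice (r = 0.969 to 0.976) and gave g of 0.923 to 1.31.

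Nfkbiz encodes IkB-zeta, a nuclear IkB that is strongly induced by LPS and IL-1 and that helps NF-kB switch on a second wave of genes. Its deviations were -389, -107, -2356, -339 and 248 in vehicle and 1022, 349, 1282, 188 and 102 in maslinic acid mice, in the order of replicates 1 to 5. All 5 maslinic acid mice were above the vehicle median, and the overlap came from vehicle replicate 5. The difference was g = 1.31 (95% CI -0.01 to 2.56, adjusted p = 0.579 in limma). Its exact permutation p was 0.0238, and 0.214 after adjustment over the 9 members. Without vehicle replicate 3 g was 1.47 and without vehicle replicates 3 and 5 it was 1.71. After quantile normalization it was 0.604. A second probe set of Nfkbiz followed the first (r = 0.913, g = 0.613), whereas the third did not (r = 0.049) and pointed the other way (g = -0.837).

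Bcl3 encodes Bcl-3, a nuclear IkB that pairs with NF-kB dimers lacking an activation domain. Its deviations were 1906, 1593, -7650, 111 and -900 in vehicle and 3947, -922, 846, 808 and 265 in maslinic acid mice. Vehicle replicate 3 lay far below the other 9 mice, which ran from -922 to 3947. The difference was g = 0.588 (95% CI -0.58 to 1.73, adjusted p = 0.756), and 0.172 without that mouse. Without vehicle replicates 3 and 5 it was -0.12.

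Nfkbie and Nfkbib encode IkB-epsilon and IkB-beta, the other inhibitors of the cytoplasm. IkB-epsilon is re-induced by NF-kB, later than IkB-alpha, while IkB-beta is made at a steadier rate. Nfkbie ran from -450 to 243 in vehicle and from -231 to 445 in maslinic acid mice (g = 0.791, 95% CI -0.41 to 1.95, adjusted p = 0.674). Its second probe set gave g = 0.074. Nfkbib ran from -50.6 to 51.4 in vehicle and from -9.6 to 10.4 in maslinic acid mice, a much narrower spread inside the vehicle range. Its difference was g = 0.060 (95% CI -1.06 to 1.18). It turned to -0.383 without vehicle replicate 3 and to -1.46 without vehicle replicates 3 and 5. After quantile normalization it was -0.203, and with arrays centred on their medians it was -0.482. Centring moved arrays against each other by up to 272 millionths, more than the 102 millionths that Nfkbib spanned.

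Of the subunits, Rela encodes the main activating partner of the classical dimer. Its deviations were 149, 65.9, -240, 81.9 and -612 in vehicle and 285, -260, 337, 120 and 73.9 in maslinic acid mice. Here vehicle replicate 5 was the lowest, not replicate 3, and 3 of the maslinic acid mice lay within the vehicle range. The difference was g = 0.718 (95% CI -0.47 to 1.87, adjusted p = 0.700), 0.409 without vehicle replicate 5 and 0.055 without vehicle replicates 3 and 5.

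Relb and Nfkb2 encode the subunits of the non-canonical dimer, Nfkb2 as a precursor that itself acts as an IkB until it is cut. Relb deviations were 294, 180, -1983, -60.9 and -48.9 in vehicle and 1004, -290, 902, 123 and -121 in maslinic acid mice. Maslinic acid replicates 1 and 3 were above every vehicle mouse and vehicle replicate 3 was below every other mouse. The difference was g = 0.743 (95% CI -0.45 to 1.898, adjusted p = 0.694) and 0.446 without vehicle replicate 3.

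Nfkb2 deviations were 447, 131, -1023, -148 and -453 in vehicle and 475, -112, 485, 94.2 and 102 in maslinic acid mice. All 5 maslinic acid mice were above the vehicle median. The difference was g = 0.858 (95% CI -0.36 to 2.03, adjusted p = 0.658), 0.595 without vehicle replicate 3 and 0.207 without vehicle replicates 3 and 5. The second probe set of Nfkb2 had 7 distinct values within 9 millionths, did not follow the first (r = 0.104) and gave g = -0.475.

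Rel encodes c-Rel, a subunit of lymphocytes and myeloid cells. Its only probe set held 5 distinct values within 4 millionths, so its values are rounding steps. They ran from 0 to 2 in vehicle and from -2 to 1 in maslinic acid mice (g = -0.705, 95% CI -1.85 to 0.48, adjusted p = 0.760). Rel was the 1 member with a lower mean. Its SD stood at percentile 10.1 of all genes, whereas Nfkbib stood at 66.9 and the other 7 members between 90.9 and 98.5.

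**Figure D2:**
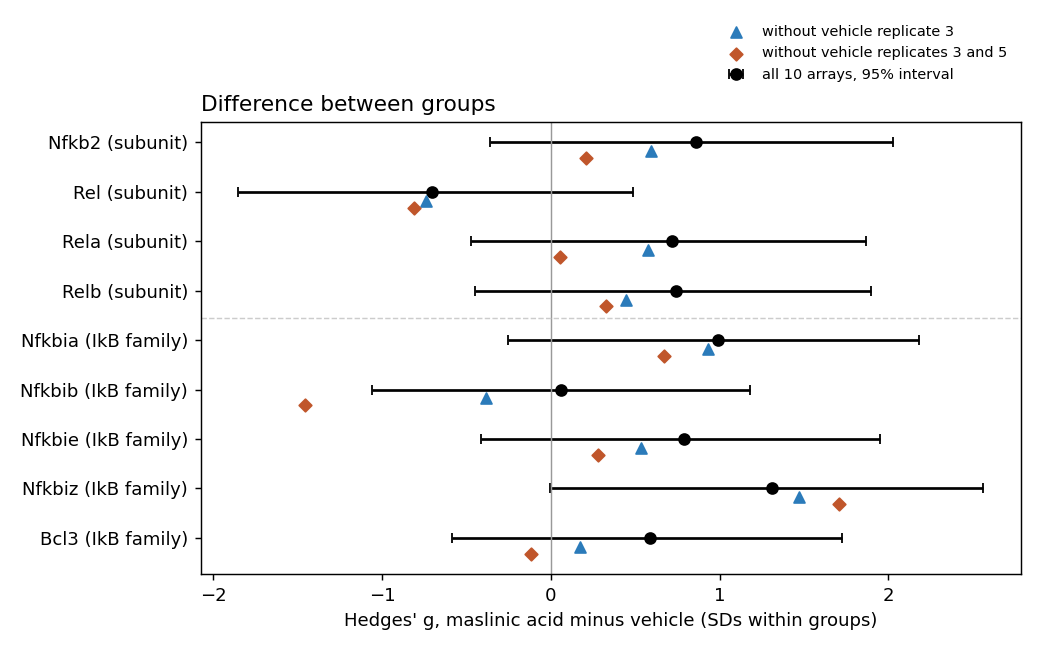
Hedges' g of each gene, maslinic acid minus vehicle, in SDs within groups (horizontal axis), with the 95% interval over all 10 arrays (circles and bars), without vehicle replicate 3 (triangles) and without vehicle replicates 3 and 5 (diamonds). All 9 intervals include 0. Without the 2 vehicle mice Nfkbiz moves up to 1.71, Nfkbib down from 0.060 to -1.46 and Rel down from -0.705 to -0.809. The values of Nfkb2, Rela, Relb, Nfkbia, Nfkbie and Bcl3 move towards 0 or, in Bcl3, past it.

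Subunits and inhibitors were set side by side to ask whether the feedback arm moved more than the factor. The median g was 0.731 over the 4 subunits, 0.791 over the 5 IkB genes and 0.891 over the 4 IkB genes that NF-kB induces (all but Nfkbib), against 0.23 over the genes with 10 distinct values. Without vehicle replicate 3 these medians were 0.510, 0.534 and 0.733, and without vehicle replicates 3 and 5 they were 0.131, 0.282 and 0.476. With the summed score of neutrophil markers as a covariate all 3 turned sign, to -0.122, -0.36 and -0.146, and all 10 measured neutrophil markers had lower means with maslinic acid. Neutrophil scores did not overlap between the groups, the lowest being -0.168 in vehicle and the highest -0.217 in maslinic acid mice. The covariate thus cannot be told apart from treatment. The part of neutrophil content in these medians was not tested. The 3 medians are descriptions of few genes and were not tested against each other.

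Within single mice, the summed IkB level (mean z-score of the 5 genes) followed the summed subunit level. The IkB score ran from -2.17 to 0.493 in vehicle and from -0.305 to 1.03 in maslinic acid mice, and the subunit score from -1.36 to 0.657 and from -0.374 to 1.04. The IkB score minus the subunit score was -0.354, -0.164, -0.810, 0.217 and 0.300 in vehicle replicates 1 to 5. In maslinic acid replicates 1 to 5 it was -0.013, 0.069, 0.249, 0.265 and 0.241. The vehicle mice spread on both sides of 0 and covered the range of the maslinic acid mice. With the 4 induced IkB genes in place of all 5, the difference was -0.367, -0.248, -0.905, -0.191 and 0.476 in vehicle replicates 1 to 5. In maslinic acid replicates 1 to 5 it was 0.215, 0.078, 0.352, 0.287 and 0.303. All 5 maslinic acid mice were thus above 0, with vehicle replicate 5 above each of them, and this was not tested. Rel, whose values are rounding steps, has the same weight in the subunit score as the other 3 genes. Without Rel, an alternative added after the values were seen, the IkB score minus the subunit score ran from -0.507 to 0.562 in vehicle and from -0.501 to 0.201 in maslinic acid mice. With the 4 induced IkB genes in place of all 5, and without Rel, it ran from -0.520 to 0.738 in vehicle and from -0.398 to 0.223 in maslinic acid mice. The vehicle range covered the maslinic acid range in each case.

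The next question was which members varied together over the 10 mice. Of 36 pairs, 32 had a positive Pearson correlation (median r = 0.64), and 16 passed after Benjamini-Hochberg adjustment over the 36 (100000 permutations). The lowest r that passed was 0.718, and of the pairs among all genes with 10 distinct values 8.01% had an r at least as high, 51.6% were positive and the median r was 0.025. Spearman's rho gave 8. Without vehicle replicate 3 there were 4 pairs, without vehicle replicates 3 and 5 there was 1, and after quantile normalization there were 0. Among the 7 members other than Rel and Nfkbib, a subset chosen after the values were seen, all 21 pairs were positive, with a median r of 0.85 over 10 arrays and 0.72 without vehicle replicates 3 and 5.

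Relb and Bcl3 had r = 0.945 (permutation p = 0.00099, adjusted p = 0.00509) and rho = 0.915 (p = 0.00053, adjusted p = 0.00954), and r = 0.576 without the 2 mice farthest from the Relb median. Nfkbie and Bcl3 had r = 0.849 (permutation p = 0.00022, adjusted p = 0.00336), rho = 0.927 (p = 0.00048, adjusted p = 0.00954) and r = 0.785 without the 2 mice farthest from the Nfkbie median. Nfkb2 and Relb, the partners of the non-canonical dimer, had r = 0.917 (permutation p = 0.0004, adjusted p = 0.00346), rho = 0.842 (p = 0.00367, adjusted p = 0.0189) and r = 0.874 without the 2 mice farthest from the Nfkb2 median. All 3 stayed positive without those mice, Relb and Bcl3 with the lowest r of the 3. Rela and Relb were the pair that passed without vehicle replicates 3 and 5 (r = 0.859, permutation p = 0.00116, adjusted p = 0.0418), but over all 10 mice their r was 0.580 (adjusted p = 0.132). Vehicle replicate 3 was the lowest mouse in Relb and vehicle replicate 5 in Rela.

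Among the pairs with a positive r, those with Nfkbiz had a lower rho than r. Nfkbiz and Bcl3 had r = 0.808 (permutation p = 0.0241, adjusted p = 0.051) but rho = 0.224 (p = 0.537, adjusted p = 0.667), and r = 0.355 without the 2 mice farthest from the Nfkbiz median. Nfkbia and Nfkbiz had r = 0.831 (permutation p = 0.0172, adjusted p = 0.0387), rho = 0.430 (p = 0.219, adjusted p = 0.343) and r = 0.106 without the 2 mice farthest from the Nfkbia median. The second relation thus rests on those 2 mice, vehicle replicate 3 and maslinic acid replicate 1, and the first did not pass.

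**Figure D3:**
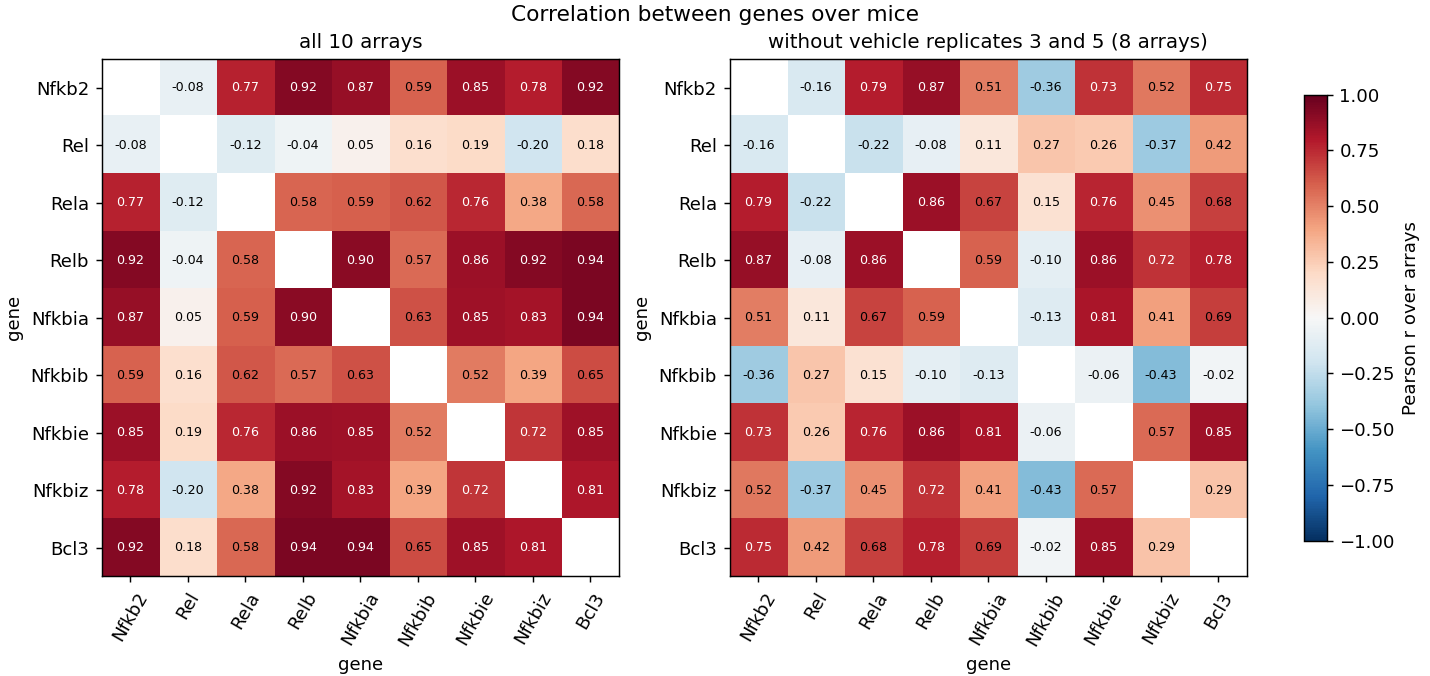
Pearson correlation between the 9 genes over all 10 mice (left) and over the 8 mice without vehicle replicates 3 and 5 (right), with r in each square and colour from -1 (blue) to 1 (red). Rel ranges from -0.20 to 0.19 on the left, and Nfkbib, which ranges from 0.16 to 0.65 there, ranges from -0.43 to 0.27 on the right.

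The genes whose pattern over the mice was most like that of 4 members were taken from the 6742 other genes with 10 distinct values, as a description. Nfkbia was most like Trmt61a (r = 0.976), Adamts4 (0.956) and Cct3 (0.947) over 10 mice, and Herc1 (0.986), Adamts4 (0.956) and Urb1 (0.949) over the 8 mice without vehicle replicates 3 and 5. Nfkbiz was most like Morn4 (r = 0.948), Ifi204 (0.936) and Sod2 (0.931) over 10 mice, and Sos1 (0.958), Atxn7 (0.944) and Dact1 (0.939) over 8. Adamts4, an aggrecanase that degrades cartilage proteoglycan, was among the 3 of Nfkbia in both settings.

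Bcl3 was most like Mettl1 (r = 0.968), Hax1 (0.963) and Trmt61a (0.962) over 10 mice, and Junb (0.966), Tnfaip2 (0.961) and Tac2 (0.958) over 8. Rela was most like Synpo (r = 0.990), Tmbim6 (0.981) and Rbm5 (0.978) over 10 mice, and Slc12a7 (0.979), Synpo (0.970) and Adamtsl1 (0.967) over 8. Synpo, an actin-associated protein, was thus the 1 gene named for Rela in both settings. No other member was among the 3 most alike, though several ranked high for Nfkbia, Nfkbiz and Bcl3. Of the 6742 genes, members ranked from 6 (Bcl3) to 1296 (Rela) for likeness to Nfkbia over 10 mice, from 6 (Relb) to 1871 (Rela) for Nfkbiz, from 13 (Nfkbia) to 1255 (Rela) for Bcl3 and from 1193 (Nfkb2) to 2910 (Nfkbiz) for Rela. For Nfkbia over 10 mice, Relb ranked 48, Nfkb2 100, Nfkbie 185, Nfkbiz 223 and Nfkbib 1049. For Bcl3, Relb ranked 14, Nfkb2 48, Nfkbie 187, Nfkbiz 300 and Nfkbib 907. For Nfkbiz, Nfkbia ranked 71, Bcl3 104, Nfkb2 155, Nfkbie 326 and Nfkbib 1846. Over the 8 mice Bcl3 fell to rank 419 for Nfkbia, while Nfkbie rose to 76 for Bcl3.

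Members were then set against the summed scores of 10 cell type marker lists and 6 pathway lists, 144 relations in all, of which 17 passed after adjustment by Pearson's r and 8 by Spearman's rho. The share of all genes that would pass against these scores was not computed. The 17 included Rel with the adipocyte score (r = -0.860, permutation p = 0.00441, adjusted p = 0.0423), although Rel values are rounding steps. This relation had rho = -0.744 (p = 0.0137, adjusted p = 0.110), and r = -0.429 without the 2 mice farthest from the median adipocyte score. The 17 also included Rela with the cartilage score and Nfkb2 and Relb with the list of feedback enzymes and adaptors. Relb and Bcl3 with the list of genes that depend on IkB-zeta were among them too. Nfkbiz was lower where neutrophil markers were higher (r = -0.901, permutation p = 0.00038, adjusted p = 0.0137; rho = -0.903, p = 0.00089, adjusted p = 0.0360). Without the 2 mice farthest from the median neutrophil score r was -0.831, and without vehicle replicate 3 it was -0.754. With both measures taken as deviations from their group means it was -0.834 over the 10 mice. Of the 12 neutrophil markers listed Ly6g and Retnlg were not measured, and the summed score of the other 10 ran from -0.168 to 1.32 in vehicle and from -0.645 to -0.217 in maslinic acid mice. With this score as a covariate the Nfkbiz difference was g = -0.36. Since the score did not overlap between the groups, this covariate cannot be told apart from treatment. The part of neutrophil content in the Nfkbiz difference was not tested.

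The score of the synovial fibroblast markers passed by Pearson's r with 5 members, namely Nfkb2, Relb, Nfkbie, Bcl3 and Nfkbiz. The markers were Prg4, Pdpn, Thy1, Has1, Has2, Clic5, Tspan15, Pdgfra, Col1a1 and Col3a1, so the score covers fibroblasts and not lining cells alone. For Nfkb2 r was 0.920 (permutation p = 5e-05, adjusted p = 0.0072), rho was 0.988 (p = 2e-05, adjusted p = 0.00288) and r was 0.928 without the 2 farthest mice. For Relb r was 0.884 (permutation p = 0.00015, adjusted p = 0.0108), rho was 0.879 (p = 0.0017, adjusted p = 0.0360) and r was 0.905 without the 2 farthest mice. For Nfkbie r was 0.884 (permutation p = 0.00062, adjusted p = 0.0173), rho was 0.879 (p = 0.00144, adjusted p = 0.0360) and r was 0.870 without them. For Bcl3 r was 0.782 (permutation p = 0.00338, adjusted p = 0.0423), rho was 0.891 (p = 0.00135, adjusted p = 0.0360) and r was 0.958 without them. For Nfkbiz r was 0.779 (permutation p = 0.00557, adjusted p = 0.0472), but rho was 0.479 (p = 0.167, adjusted p = 0.430) and r was 0.442 without them. Nfkbiz was thus the 1 of the 5 that did not pass by rho. Of the 10 markers 9 had higher means with maslinic acid, against 49.6% of all genes and 60.3% of those with 10 distinct values. Their summed score ran from -0.782 to 0.282 in vehicle and from -0.207 to 0.818 in maslinic acid mice. Rela followed the IKK and activator list (r = 0.931, permutation p = 0.00072, adjusted p = 0.0173; rho = 0.818, p = 0.00604, adjusted p = 0.0669; r = 0.733 without the 2 farthest mice). 

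The score of known NF-kB target genes passed with Relb, Bcl3 and Nfkbie. For Relb r was 0.898 (permutation p = 0.00027, adjusted p = 0.0130), rho was 0.903 (p = 0.00083, adjusted p = 0.0360) and r was 0.718 without the 2 farthest mice. For Bcl3 r was 0.866 (permutation p = 0.00126, adjusted p = 0.0227), rho was 0.818 (p = 0.00575, adjusted p = 0.0669) and r was 0.594 without them. For Nfkbie r was 0.847 (permutation p = 0.00156, adjusted p = 0.0250), rho was 0.867 (p = 0.00212, adjusted p = 0.0382) and r was 0.684 without them. For Nfkbia, which did not pass, r was 0.797 (permutation p = 0.00875, adjusted p = 0.0600), rho was 0.636 (p = 0.0541, adjusted p = 0.236) and r was 0.262 without vehicle replicate 3 and maslinic acid replicate 2. Vehicle replicate 3 held the lowest value in 16 of the 32 measured target genes.

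**Figure D4:**
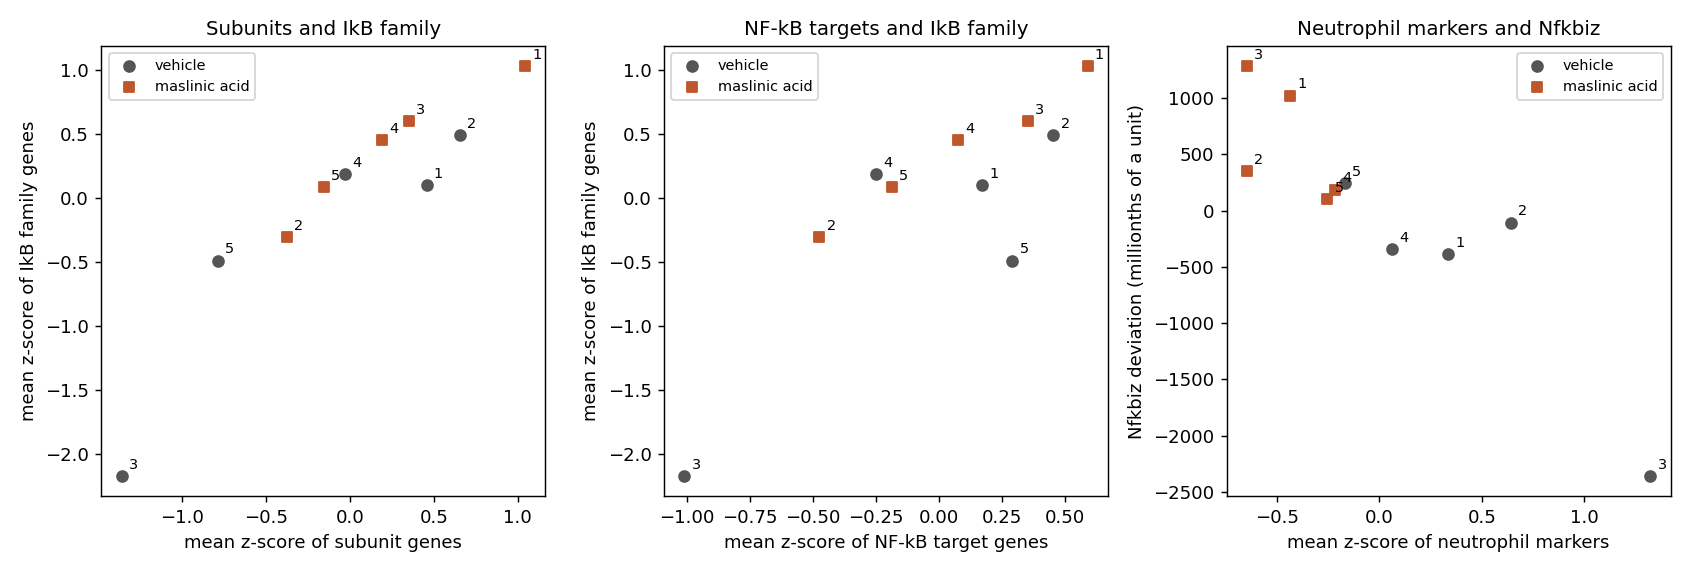
Each point is 1 mouse, vehicle (circles) or maslinic acid (squares), with its replicate number. Left, mean z-score of the subunits (horizontal) and of the IkB family (vertical); middle, mean z-score of NF-kB target genes and of the IkB family; right, mean z-score of neutrophil markers and the Nfkbiz deviation in millionths of a score unit. Vehicle replicate 3 lies at the low end of both scores on the left (-1.36 and -2.17) and at the high neutrophil end on the right (1.32).

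Over the rest of the pathway means lay in both directions. Of 15 measured genes of the IKK complex and canonical activators, 11 had higher and 4 lower means (median g = 0.18), and 0 passed. At an unadjusted p under 0.05 there was 1, lower, Map3k7, which encodes the kinase TAK1 that activates IKK (g = -3.19, 95% CI -5.05 to -1.26, adjusted p = 0.461). Its groups did not overlap, but its difference was -4.8 millionths over 7 distinct values, so that, as in Rel, these are rounding steps. Rnf31, the catalytic subunit of the linear ubiquitin ligase, was at 0.734 (-0.46 to 1.89). Of 9 genes of the non-canonical arm 4 were higher and 5 lower (median g = -0.065), and 0 passed. Ltb, lymphotoxin beta, a ligand that triggers this arm, was at -2.35 (-3.91 to -0.73, adjusted p = 0.505) with groups that did not overlap. Cd40, a receptor of the same arm, was at -0.645 (-1.79 to 0.54), with a difference of -5.4 millionths over 8 distinct values.

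Of 11 feedback enzymes and adaptors 7 were higher and 4 lower (median g = 0.41), 0 of them past the test or at an unadjusted p under 0.05 in limma. The 2 of lowest p were Zc3h12a, the ribonuclease regnase-1 that destroys cytokine mRNAs (g = 1.26, 95% CI -0.04 to 2.51, adjusted p = 0.582, exact permutation p = 0.0238), and Tnfaip3, the ubiquitin-editing enzyme A20 (1.23, -0.06 to 2.47, adjusted p = 0.583, exact permutation p = 0.0714). Both are themselves NF-kB targets, like the induced IkB genes. The 3 other IkB-like genes were Nfkbil1 (g = -1.17, 95% CI -2.39 to 0.11), Nfkbid (-0.396, -1.52 to 0.75) and Ankrd42 (0.031, -1.09 to 1.15). Their differences were -10.6, -4 and 0.4 millionths, close to the last decimal deposited.

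Of 32 known NF-kB target genes 20 were higher and 12 lower (median g = 0.099), and 0 passed. The 2 of lowest p were Plau, urokinase, which was lower (g = -2.12, 95% CI -3.60 to -0.57, adjusted p = 0.525, groups not overlapping, a difference of -3.2 millionths in rounding steps), and Mmp9, gelatinase B (1.01, -0.24 to 2.20, adjusted p = 0.620). Of 11 genes that depend on IkB-zeta 6 were higher and 5 lower (median g = 0.065), and 0 passed. In this list Edn1, endothelin 1, was at 1.58 (0.19 to 2.90, adjusted p = 0.550, a difference of 3.2 millionths in rounding steps) and Lcn2, the iron-binding protein lipocalin 2, at 1.14 (-0.14 to 2.35, adjusted p = 0.599). The genes of this list thus had means in both directions.

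**Figure D5:**
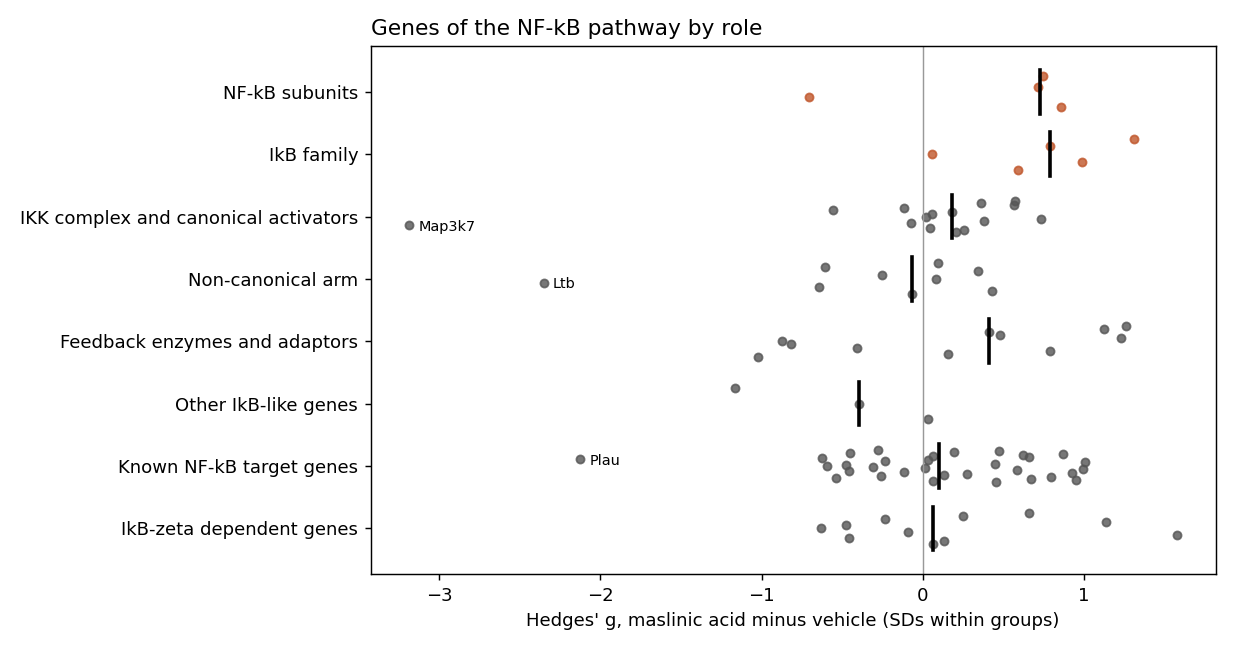
Hedges' g (horizontal axis, maslinic acid minus vehicle, in SDs within groups) of each measured gene by role (rows), with the median of each row as a black bar and the genes beyond 1.9 SDs named. The medians of the subunits (0.731) and IkB family (0.791) lie to the right of those of the other 6 rows (-0.40 to 0.41), and Map3k7, Ltb and Plau lie far to the left, Map3k7 and Plau with differences of under 5 millionths.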

How the data were processed

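Total RNA from synovium was labelled with a 3' in vitro transcription kit, per the labels' protocols, and hybridised to Affymetrix mouse arrays. The deposited value is treated as a score. The authors worked in R 3.2.1, as the submitters' processing notes record. How background was corrected and probes were summarised is not stated in the labels. No pair of arrays was identical. Of 39993 probe sets, 34202 named 1 gene, 931 several and 4860 none in the platform annotation. The files give no detection call, no batch and no counts, so the number of arrays limits precision.

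Maslinic acid was compared with vehicle in limma 3.58.1 under R 4.3.3 (a linear fit with moderated variances) over 18128 genes, with Benjamini-Hochberg adjustment and a threshold of 0.05. Prior degrees of freedom were 0.48, so variances were moderated little. Exact permutation tests used all 252 assignments. Correlations used 100000 permutations, each gene left out of a score it was set against. Python 3.11.15 with scipy 1.17.1 computed the rest. The scripts were tested on simulated data.

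The 10 members, the lists and the rules were chosen with earlier results of these data known. Named genes were the members, the 2 of lowest p in each pathway list, and the 3 most alike to Nfkbia, Nfkbiz, Bcl3 and Rela (Nfkb1, also in the rule, was not measured). Correlated pairs and lists were named after their values were seen. Alternatives were other scalings, probe sets, fits, covariates and array subsets. Leaving out vehicle replicate 3 from correlations, or together with maslinic acid replicate 1, was added after seeing the data.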

Additional observations from a re-analysis of the deposited data

Results flagged for a closer look

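In 4 groups a value lay apart from the other arrays of their group, where the gap to the nearest array, divided by the range of the 5, was above 0.71. In the vehicle group replicate 3 was the low one in Relb (ratio 0.844, deviation -1983 millionths), Nfkbia (0.752, -853) and Nfkbiz (0.755, -2356). In Rel, vehicle replicate 2 was high (ratio 1, deviation 2 millionths), where the other 4 arrays held 1 value. Chance gives about 1 in 20 groups. Here 4 of 18 member groups were affected, against 6.49% of 13486 groups over the genes with 10 distinct values. The flags of Relb, Nfkbia and Nfkbiz came from the same mouse, so the member groups are not independent. Rel is not among the genes with 10 distinct values. In 1.35% of these genes vehicle replicate 3 was the low one in this way.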

How the results depend on the processing

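No member passed in any setting with a test across all genes (21 per member, 20 for Rel and Bcl3, which lie outside the genes above the median level), with a lowest adjusted p of 0.445. The count of genes passing was 0 in all settings except quantile normalization, with 3 (2310039H08Rik, Klf3 and Rnf130, each with equal values within a group after that step), and trended and robust eBayes, with 1 (BC016579); these are named after their values were seen. At an unadjusted p under 0.05 there were 809 genes above the median level, 344 with arrays centred on their medians and 3617 over every probe set, against 1552. With the replicate block 0 genes and 0 members passed, no call changed, Nfkbiz was at 0.895, and the medians were 0.580 for subunits and 0.588 for the IkB family. Whether replicate numbers pair the samples is not stated in the labels. Of 5 same-numbered pairs 2 correlated above 0.1 (r from -0.39 to 0.35), those of replicates 1 and 4. In both the best match had the same number, so this check cannot settle it.

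With the neutrophil score as a covariate the median g was -0.122 over the subunits, -0.36 over the IkB family and -0.146 over the induced IkB genes, and Relb was at -0.572, Nfkbib at -0.578, Nfkbiz at -0.36 and Bcl3 at -0.473. Nfkbib also turned with array weights (-0.516), quantile normalization (-0.203), centred arrays (-0.482), without vehicle replicates 3 and 5 (-1.46) and without vehicle replicate 3 and maslinic acid replicate 1 (-0.367), and ran from -0.383 to 0.582 without single arrays. Bcl3 was at -0.119 without vehicle replicates 3 and 5 and at -0.34 without vehicle replicate 3 and maslinic acid replicate 1. Other probe sets turned Nfkb2 (-0.475) and Nfkbiz (-0.837). The causes were not tested. Neutrophil scores did not overlap between the groups, so that covariate cannot be told apart from treatment. Nfkb2, Rel, Rela, Nfkbia and Nfkbie had the same sign in each setting on the chosen probe set, but with the neutrophil covariate Nfkbia was at 0.067 and Nfkb2 at 0.109. Medians of the pathway lists ranged from -0.849 to 0.573, and that of the other IkB-like genes alone kept 1 sign. Those genes had differences of only -10.6 to 0.4 millionths in the main fit.

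Pairs of members that passed numbered 16, and 8 by Spearman, 1 without vehicle replicates 3 and 5, 4 without vehicle replicate 3, 0 after quantile normalization (19 of 36 positive), 24 with centred arrays (8 of them negative, r down to -0.93) and 12 as deviations from group means. Array medians differed by up to 272 millionths, more than the whole range of Rel (4) and Nfkbib (102). Centred values of these 2 genes thus mostly hold the shift of the arrays. Leaving out the 2 arrays farthest from the median gave r from -0.36 to 0.98. Values resting on few millionths, as in Rel, are limited by rounding.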

Other observations

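Members varied more among vehicle than among maslinic acid mice in 8 of 9 genes, as did 81.7% of the 6743 genes with 10 distinct values. Without vehicle replicate 3 this held for 3 of the 9 members (Nfkb2, Rela and Nfkbib) and for 73.7% of those genes. The SD of Nfkbia over the vehicle mice was 392 millionths with that mouse and 101 without it, against 194 in maslinic acid mice. For Bcl3 it was 3893 and 1311, against 1801.

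The other cell type lists gave these counts with maslinic acid, with 0 genes past the test in each. Means were higher in 49.6% of all genes and in 60.3% of those with 10 distinct values (median g = 0.23). Markers of 1 cell type can vary together, so such counts are not independent results. Macrophage markers had higher means in 9 of 11 (median g = 0.33), T cell markers lower in 4 of 5 (-0.88), B cell markers lower in 3 of 4 (-0.39), skeletal muscle markers higher in 10 of 10 (0.41), cartilage markers higher in 7 of 7 (0.61), bone markers higher in 4 of 4 (1.18), adipocyte markers higher in 4 of 4 (0.87) and endothelial markers higher in 6 of 6 (0.55). Nfkb2, among the members, also followed the endothelial score (r = 0.847, permutation p = 0.00368, adjusted p = 0.0423; rho = 0.685, p = 0.0346, adjusted p = 0.165), with r = 0.489 without vehicle replicates 3 and 5, the 2 mice farthest from its median.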
